A study of Homo sapiens with 6 samples.

Results

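DPYSL2 is a collapsin response mediator protein (CRMP). The data described here are the mRNA levels of its gene family and of semaphorin receptors, 9 genes of the 50868 in the deposited table. They are DPYSL2, DPYSL3, DPYSL4, DPYSL5 and CRMP1, the neuropilin genes NRP1 and NRP2, and the plexin genes PLXNA1 and PLXNB2. DPYSL2 was chosen by its own values in these libraries, a small p and groups without overlap between P-T3H2 and P-T3H2-2A; no numerical threshold was set. The other 8 were added as relatives and receptors with results of these data known. The members' values in this comparison are therefore given as a description, without p-values. Each name had 1 row in the table, and 7 of the 9 genes passed the filter on low counts; DPYSL4 and CRMP1 did not.

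The cells were Huh7, a human hepatocellular carcinoma line labelled wild type and grown in serum-containing DMEM. The treated group, 3 libraries, received the cell-permeating peptide P-T3H2, and the control group, also 3 libraries, the control peptide P-T3H2-2A; each peptide was given at 20 µM for 5 days. No untreated cells were analysed here. Beside these groups the design text speaks of 3, and 2 kits for library preparation are named (SMARTER and VAHTS Universal V6), neither assigned to samples. The study's title names the liver transcription factor HNF4α as the protein that P-T3H2 stabilises. Nothing in the labels states that the replicates were grown separately; p-values therefore measure only the spread between these libraries, which may be technical.

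Semaphorins are secreted or membrane-bound guidance proteins. Plexins are their signalling receptors, and class 3 semaphorins mostly bind through a neuropilin that pairs with an A-type plexin. CRMPs were found as cytosolic proteins needed for the response of neurons to semaphorin 3A. DPYSL2 binds tubulin, promotes microtubule assembly and is released from tubulin when kinases such as CDK5 and GSK3β phosphorylate it. The DPYSL gene names refer to dihydropyrimidinase, a liver enzyme of pyrimidine breakdown whose fold CRMPs share without its activity.

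Total gene counts ran from 17434442 to 21374732 per library. Control replicate 3 (P-T3H2-2A replicate 3) stood apart from its group: on the first principal component (68.6% of the variance) it scored 27.3, against -60.3 and -58.6 for control replicates 1 and 2 and 23.8 to 34.3 for the treated libraries. It thus lay among the treated libraries on this axis. On the second component it lay apart from both groups, at 31.95. There control replicates 1 and 2 scored 4.41 and -5.76, and the treated libraries -12.1 to -9.23. Whether the label of control replicate 3 is right was not tested. If the label were wrong, every control mean of 3 libraries and every 6-library fold change would mix treatments, so fold changes are given with it and without it. The labelled liver origin was visible in the markers: the 10 hepatocyte genes checked summed to 35050 to 35610 CPM (reads scaled to a common library total) in controls and 33090 to 34510 CPM in treated cells. Within the sum, groups did not overlap for FGB and TF only, both lower in treated cells. FGB was at 2966, 3006 and 811.8 CPM in controls against 746.4 to 765.9 CPM in treated cells. TF was at 3311, 3279 and 3157 CPM in controls against 2359 to 2704 CPM in treated cells. ALB was at 4291, 4191 and 5895 CPM against 5112 to 6163 CPM, which overlapped. All 10 neuronal markers had a mean over the 6 libraries under 1 FPKM (reads per gene length and library total), 4 of them (ELAVL3, DCX, INA and RBFOX3) at 0 in all libraries; SNAP25 reached 1.05 and 1.07 FPKM in control replicates 1 and 2. The neuronal list summed to 14.9 to 16.5 CPM in controls and 15.6 to 21.0 CPM in treated cells. Of the 8 endothelial markers 5 were at 0 in all libraries (4.15 to 11.9 CPM against 4.99 to 5.17), of the 8 fibroblast and stellate cell markers ACTA2 was (45.6 to 62.7 CPM against 52.4 to 62.1), and of the 8 blood cell markers none was (136 to 657 CPM against 581 to 689, nearly all from LYZ). The share of counts from 13 mitochondrial mRNAs was 5.99% to 6.91% in controls and 6.87% to 7.39% in treated cells. The part of these marker and mitochondrial differences in the results was not tested. In bulk RNA, fewer cells that express a gene and less RNA per cell cannot be told apart.

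DPYSL2, which links tubulin dimers to growing microtubules and to kinesin transport, was the most abundant CRMP gene and, with all libraries, had the largest fold difference between groups of the 7 members tested. It stood at 70.2, 73.5 and 93.6 CPM in control replicates 1, 2 and 3 and at 167.4, 153.4 and 158.1 CPM in the treated libraries. All 3 treated libraries were above all 3 control libraries, and control replicate 3 was the highest of the controls. Groups did not overlap for 23.4% of the 15946 genes tested and for 2 of the 7 members tested, DPYSL2 and DPYSL3. The means were 159.6 ± 7.12 CPM (SD, n = 3) in treated cells and 79.1 ± 12.7 CPM (SD, n = 3) in controls, a fitted fold change of 2.02 (log2 1.01, SE 0.127). Without control replicate 3 the fold change was 2.22 (log2 1.15, SE 0.0596), and against that library alone the log2 value was 0.77. A fit with 1 control library holds no spread between controls, so only its effect size is given. Between 1213 and 3593 reads per library were counted on the gene (ENSG00000092964, chromosome 8, 26514275 to 26658178, GRCh38).

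**Figure D1:**
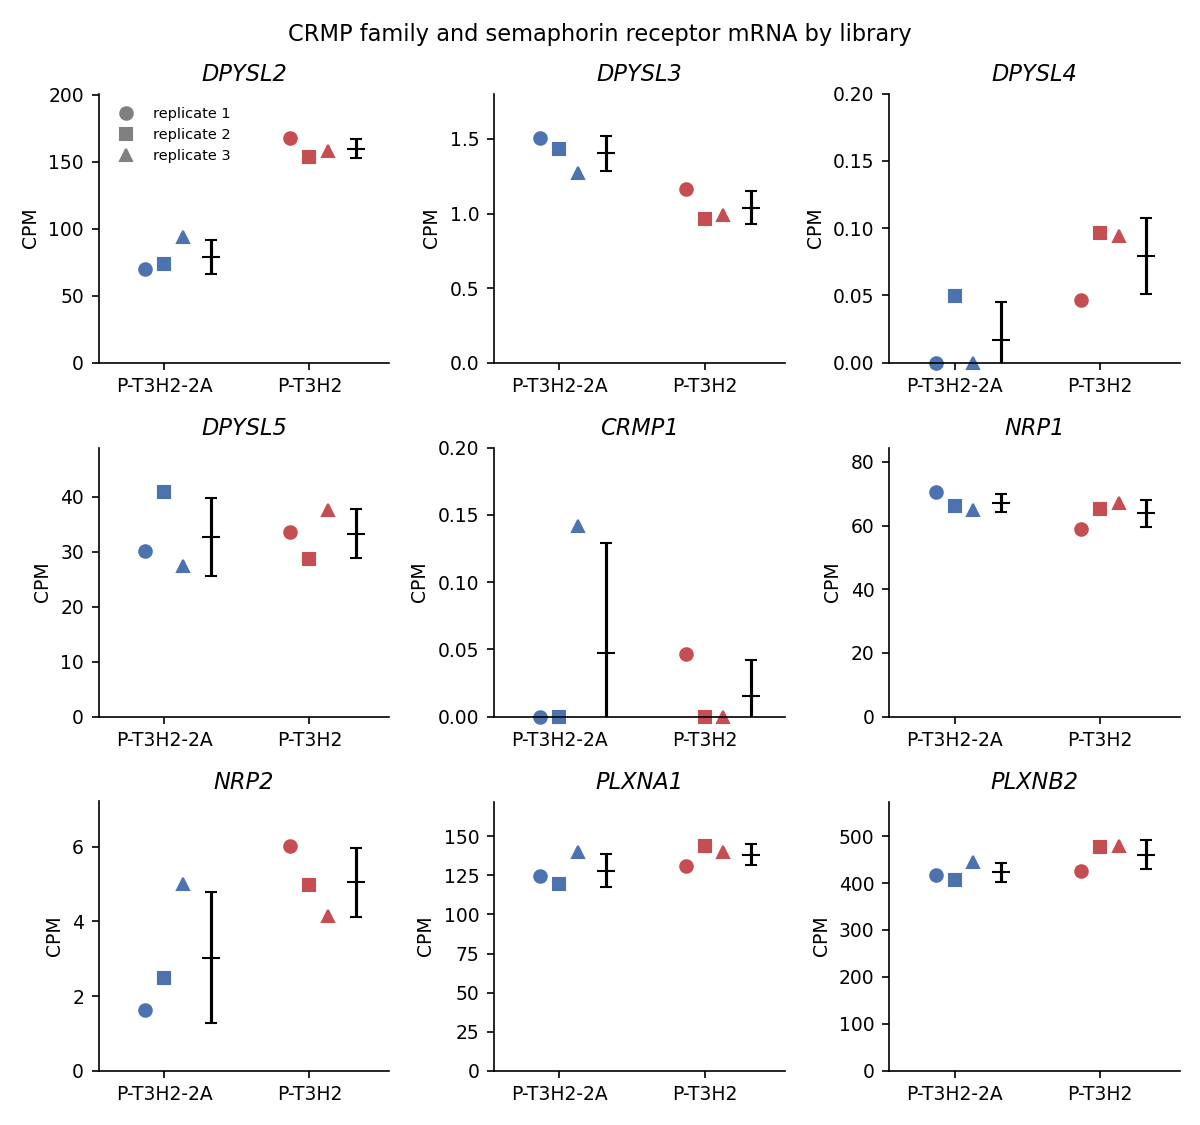
CPM (y axis, linear from 0, a different scale in each panel) of the 9 genes by group, with 1 point per library, the marker giving the replicate number, and the mean with its SD in black (n = 3). DPYSL2 lay between 153.4 and 167.4 CPM with P-T3H2, above the 70.2 to 93.6 CPM of P-T3H2-2A, and the DPYSL4 and CRMP1 panels span only a few reads.

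DPYSL5, also called CRMP5 (ENSG00000157851, chromosome 2, 26847747 to 26950351), forms tetramers with other CRMPs and was the second most abundant member of the family. It was at 30.1, 40.8 and 27.4 CPM in the controls and at 33.5, 28.7 and 37.7 CPM in the treated libraries. The groups overlapped fully, with the highest and the lowest library both among the controls. The log2 fold change was 0.02 (SE 0.182), and -0.09 (SE 0.165) without control replicate 3.

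The remaining family members were close to the limit of detection. DPYSL3, which is linked to actin bundling and filopodia in neurons (ENSG00000113657, chromosome 5, 147390811 to 147510056), had 26, 29 and 27 counts in the controls and 25, 20 and 21 in the treated libraries. Its CPM values did not overlap between groups (1.27 to 1.50 in controls, 0.966 to 1.17 in treated cells; log2 fold change -0.43, SE 0.211, and -0.50, SE 0.238, without control replicate 3). The counting intervals of the group totals did overlap: 82 counts, or 1.40 CPM (exact 95% Poisson interval 1.11 to 1.73), against 66 counts, or 1.04 CPM (0.805 to 1.32). DPYSL4 (ENSG00000151640, chromosome 10, 132186900 to 132205776) had 1 count over the controls and 5 over the treated libraries (intervals 0.000431 to 0.0949 and 0.0256 to 0.184 CPM). CRMP1, a mainly neuronal member (ENSG00000072832, chromosome 4, 5748084 to 5893058), had 3 counts over the controls, all in replicate 3, and 1 over the treated libraries (intervals 0.0105 to 0.149 and 0.000399 to 0.0879 CPM). For DPYSL4 and CRMP1 no difference was detectable at this depth. The intervals cover counting error only.

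Because reads were counted over genes of different length, levels of different genes were compared in FPKM. DPYSL2 held 73.5%, 68.4% and 80.2% of the summed FPKM of the 5 CRMP genes in control replicates 1, 2 and 3. In the treated libraries it held 85.7%, 86.5% and 83.6%. DPYSL5 held nearly all of the rest, between 12.9% and 30.3%, and DPYSL3 at most 1.40%. The family sum was 8.99, 10.2 and 11.1 FPKM in controls and 18.6, 16.8 and 17.98 FPKM in treated cells. Without DPYSL2 it was 2.39, 3.22 and 2.19 FPKM against 2.66, 2.27 and 2.95 FPKM, which overlapped.

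**Figure D2:**
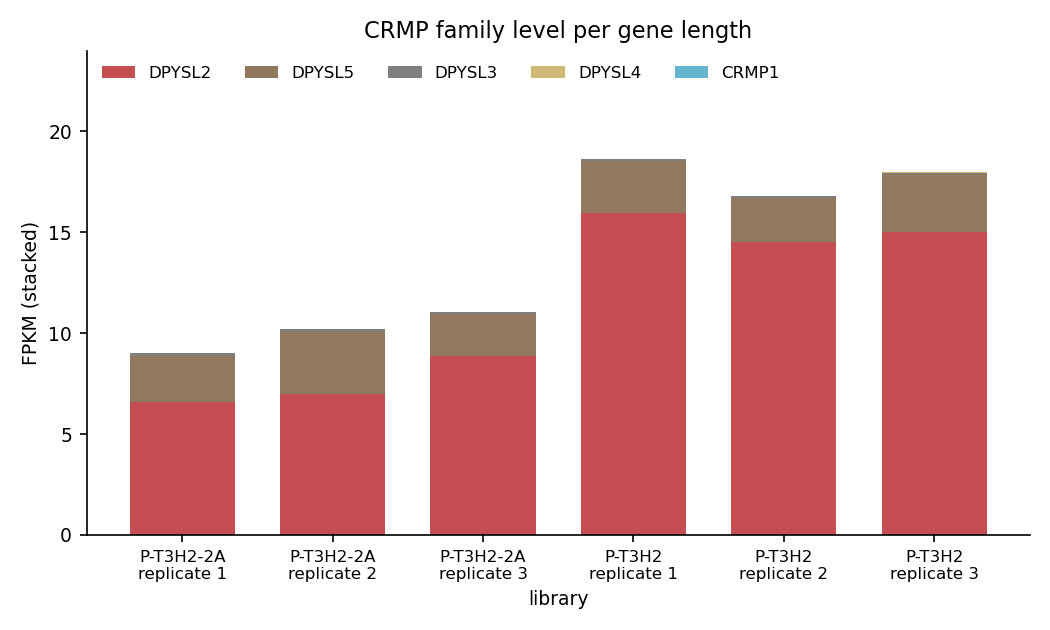
Stacked FPKM (y axis, linear from 0) of the 5 CRMP genes in each library (x axis). The bars reach 8.99 to 11.1 FPKM with P-T3H2-2A and 16.8 to 18.6 FPKM with P-T3H2, and DPYSL2 makes up the visible difference; DPYSL3, DPYSL4 and CRMP1 are too thin to see.

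Among the receptors, NRP1, the main neuropilin for semaphorin 3A and also a co-receptor for VEGF-A (ENSG00000099250, chromosome 10, 33177492 to 33336262), was at 70.4, 66.04 and 65.04 CPM in controls and at 58.9, 65.3 and 67.2 CPM in treated cells. The groups overlapped, and the log2 fold change was -0.07 (SE 0.0881), or -0.10 (SE 0.0746) without control replicate 3. NRP2, which prefers semaphorin 3F and VEGF-C (ENSG00000118257, chromosome 2, 205681990 to 205798133), was far lower and followed another pattern. It had 28, 50 and 106 counts in the controls and 129, 103 and 88 in the treated libraries, or 1.62, 2.48 and 5.00 CPM against 6.01, 4.97 and 4.15 CPM. Control replicates 1 and 2 were the lowest of the 6 libraries, and control replicate 3 lay inside the treated range. The log2 fold change was 0.72 (SE 0.406) with all libraries and 1.29 (SE 0.253) without control replicate 3, against 0.02 relative to that library alone.

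Both plexin genes were higher than either neuropilin gene in every library, in CPM and per length. PLXNA1, a signalling partner of neuropilins (ENSG00000114554, chromosome 3, 126988594 to 127037392), was at 124.9, 119.3 and 139.8 CPM in controls and at 131.0, 143.6 and 140.3 CPM in treated cells. PLXNB2, a receptor for class 4 semaphorins and for angiogenin (ENSG00000196576, chromosome 22, 50274979 to 50307627), was at 417.9, 405.6 and 444.3 CPM against 425.3, 477.8 and 478.2 CPM. In each gene the groups overlapped and control replicate 3 was the highest control. The log2 fold changes were 0.11 (SE 0.0927) for PLXNA1 and 0.12 (SE 0.0887) for PLXNB2, and 0.18 (SE 0.0596) and 0.16 (SE 0.0633) without control replicate 3.

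**Figure D3:**
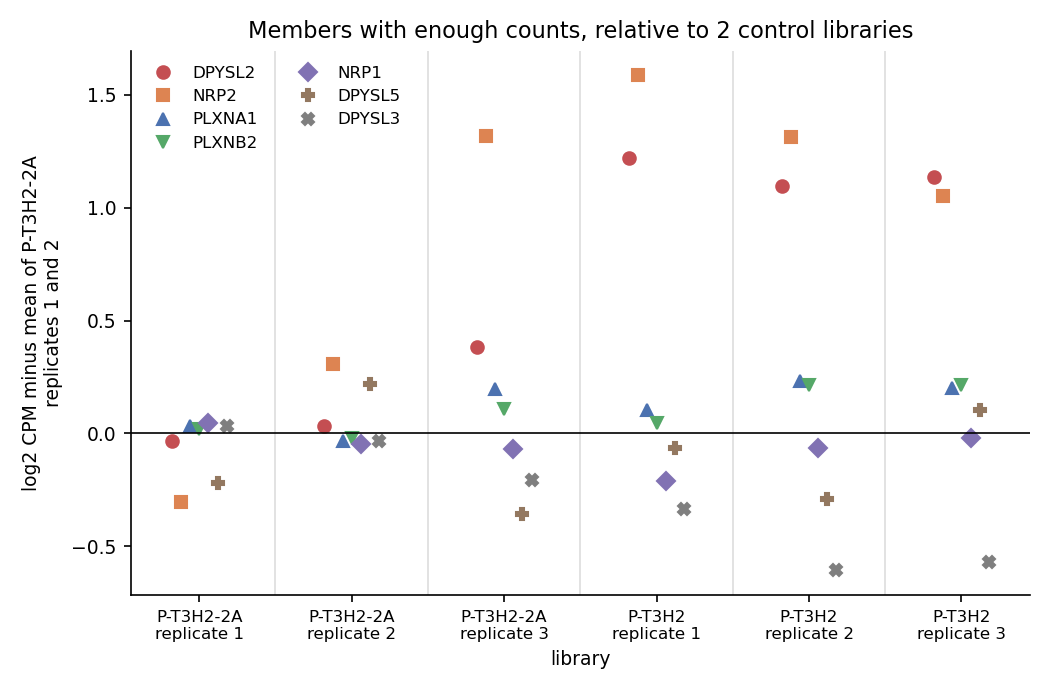
Log2 CPM of the 7 members that passed the count filter (y axis), relative to the mean of P-T3H2-2A replicates 1 and 2, in each of the 6 libraries (x axis). In P-T3H2-2A replicate 3 NRP2 is as high as in the P-T3H2 libraries while DPYSL2 is nearer to the other controls; NRP1, PLXNA1 and PLXNB2 stay near 0 throughout.

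Per length, PLXNB2 was the highest of the 9 genes at 35.3 ± 1.69 FPKM (SD, n = 3) in controls and 38.6 ± 2.44 FPKM (SD, n = 3) in treated cells. It exceeded PLXNA1 by a ratio of 3.46 to 3.72 in every library. PLXNA1 (9.81 ± 0.826 and 10.6 ± 0.465 FPKM) and DPYSL2 (7.49 ± 1.22 and 15.2 ± 0.731 FPKM) were next, and their order differed between the groups. The ratio of DPYSL2 to PLXNA1 was 0.694, 0.761 and 0.827 in the controls and 1.58, 1.32 and 1.39 in the treated libraries. NRP1 followed at 3.81 ± 0.146 and 3.63 ± 0.238 FPKM and DPYSL5 at 2.47 ± 0.542 and 2.52 ± 0.343 FPKM. NRP2 (0.151 ± 0.0876 and 0.251 ± 0.0471 FPKM) and DPYSL3 (0.118 ± 0.0096 and 0.0876 ± 0.00946 FPKM) were not separated beyond their spread in controls, and NRP1 exceeded NRP2 by a ratio of 49.7 in control replicate 1 and of 11.2 to 30.5 in the other libraries. DPYSL4 and CRMP1 came last, at or under 0.0218 FPKM in every library. The deposited FPKM rest on long gene lengths, 10528 bases for DPYSL2 against 7305 bases of exon in GENCODE release 29. With the GENCODE lengths DPYSL2 and PLXNA1 were level in control replicate 3 (12.8 for both, as CPM per kilobase), and DPYSL5 and NRP1 were level in control replicate 2 (5.77 and 5.73); within every other library the order of these 5 genes was kept.

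Across all genes edgeR's quasi-likelihood test (Benjamini-Hochberg adjusted p under 0.05) called 1 of 15946 with all 6 libraries, 0.00627%, and 0 of the 7 members tested. DESeq2 called 0.715% of genes and 1 member, DPYSL2. Against control replicate 3 alone edgeR called 0.368% of genes and again DPYSL2 as the 1 member. Without that library it called 45.4% of genes and 3 of 7 members, DPYSL2, NRP2 and PLXNA1. As DPYSL2 was picked on this comparison, nothing is read from these shares about the members.

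The place of control replicate 3 gives one more description of DPYSL2. On a log2 scale with the mean of control replicates 1 and 2 at 0% and the treated mean at 100%, that library lay at 33.1% for DPYSL2 and at 100.2% for NRP2. Over the 789 genes of at least 5 CPM that were called and at least 2-fold changed without it, the median was 96.4% (quartiles 89.0% and 101.5%). Of the 788 other genes 8 had a lower value than DPYSL2. DPYSL2 had been singled out for groups that do not overlap, which favours a low value, so this is no independent property of the gene.

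**Figure D4:**
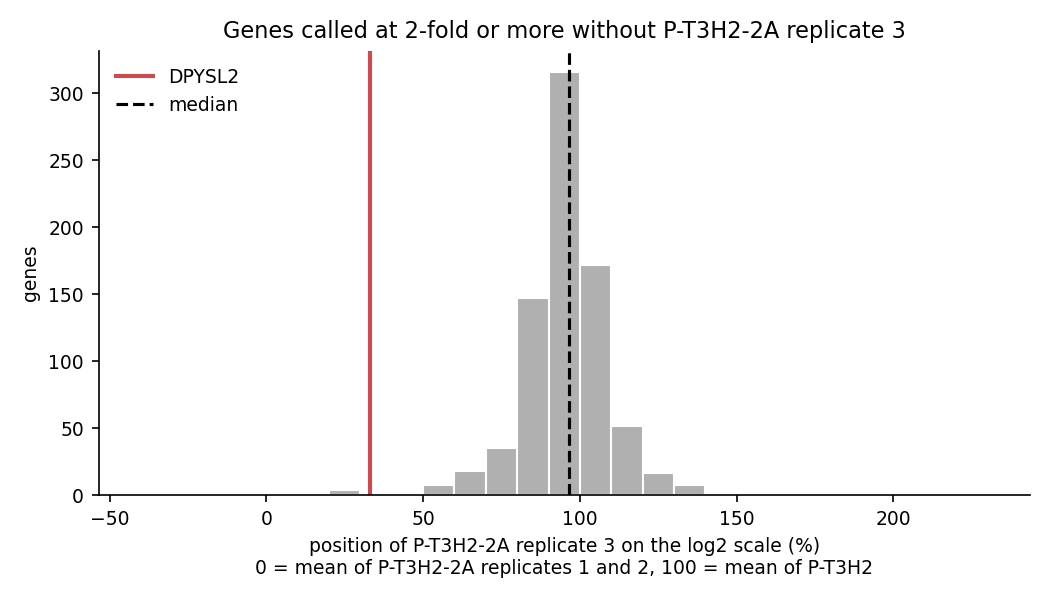
Number of genes (y axis) by the position of P-T3H2-2A replicate 3 between P-T3H2-2A replicates 1 and 2 (0%) and P-T3H2 (100%), for 789 genes called and changed at least 2-fold without that library. The median is 96.4% (dashed) and DPYSL2 is at 33.1% (red line).

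Of 11397 genes with a mean of at least 5 CPM, those most like DPYSL2 over the 6 libraries were PARD3B, PHLDB3, FAM214B, IGDCC4 and DNM1. The measure was the root mean square difference in log2 CPM after each gene's mean was subtracted, which was 0.105 for PARD3B and 0.153, 0.160, 0.170 and 0.174 for the others, against a median of 0.561 over all genes ranked. PARD3B, a relative of the polarity protein PAR-3, was at 6.42, 7.03 and 9.71 CPM in controls and at 15.7, 13.5 and 13.01 CPM in treated cells. DNM1, the GTPase dynamin of vesicle scission, was at 15.3, 17.4 and 22.7 CPM against 28.9, 29.9 and 31.0 CPM. In both genes control replicate 3 was the highest control and below every treated library. Both were picked for likeness to DPYSL2 over these same libraries, so this shared pattern follows from the selection. Among the members ranked, PLXNA1 and PLXNB2 had differences of 0.467 and 0.470, followed by DPYSL5 at 0.571 and NRP1 at 0.578. Below the 5 CPM limit, the same measure was 0.369 for NRP2 and 0.740 for DPYSL3.

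Around the members, 124 genes of 8 whole families or partner groups were examined: semaphorins, the other plexins, co-receptors and ligands, plexin effectors, CRMP kinases and phosphatases, CRMP cargo, and pyrimidine-degrading enzymes. With all 6 libraries 0 of the 99 tested passed in edgeR over all genes, and DESeq2 called 0 of 100. An unadjusted p under 0.05 was found for 23 of the 99 (23.2%), against 2874 of the 15946 genes tested in all (18%). Groups did not overlap for 31 (31.3%), against 23.4% of all genes tested. Without control replicate 3, 28 of 100 rose and 22 fell in treated cells, 50% against the 45.4% of all genes. Their median log2 fold change was 0.04 in the 6-library fit (-0.004 over all genes) and 0.02 in the fit of 5 libraries (0.003 over all genes). Adjusted p-values and "rose" or "fell" below refer to the edgeR fit without control replicate 3. In that fit 3686 of all 16281 genes tested rose and 3704 fell. With all libraries the adjusted p of the genes named was 0.275 to 0.733. Giving the smaller fit such weight was decided with the data known, so its p-values are not independent evidence.

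Among the ligands, SEMA6B and SEMA4G, transmembrane semaphorins, were the most abundant, at 40.1 and 15.9 FPKM in controls. SEMA4G had 182.8 and 173.3 CPM in control replicates 1 and 2 but 334.9 CPM in the remaining control, near the 328.4 to 352.3 CPM of treated cells. It rose by 0.95 on the log2 scale (adjusted p = 4.41e-05), against 0.58 with all libraries. SEMA6B, a ligand of A-type plexins, rose by 0.47 (adjusted p = 0.000517) and had groups that did not overlap, at 178.7, 179.7 and 231.6 CPM against 244.3, 260.1 and 240.6 CPM. SEMA4C, a ligand of PLXNB2, was at 67.6, 67.2 and 41.9 CPM against 36.3, 41.6 and 38.0 CPM and fell by 0.80 (adjusted p = 0.00023). With all libraries the values of SEMA6B and SEMA4C were 0.34 and -0.61. Of the 8 transmembrane or anchored semaphorins tested, 3 rose and 2 fell, or 62.5% against 45.4% of all genes.

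Class 3 semaphorins, the secreted ligands of neuropilins, were lower in level. SEMA3A, the ligand through which CRMPs were found, was at 26.0, 26.0 and 31.5 CPM in controls and 30.0, 27.1 and 30.4 CPM in treated cells (log2 fold change 0.07, SE 0.117; without control replicate 3, 0.17, adjusted p = 0.141). SEMA3F, which binds NRP2, had values of -0.06 and -0.10 (adjusted p = 0.411). SEMA3D rose by 0.65 (adjusted p = 0.00119) and SEMA3B by 0.84 (adjusted p = 0.00216), against 0.39 and 0.61 with all libraries; relative to control replicate 3 alone the value of SEMA3D was -0.01. Of 6 class 3 genes tested in the fit without control replicate 3, 2 rose and 1 fell, or 50% against 45.4% of all genes.

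Of the other 7 plexin genes 5 were tested. Without control replicate 3, 3 rose and 1 fell, or 80% against 45.4% of all genes. PLXNA3, another neuropilin partner, was at 23.1, 21.8 and 41.9 CPM in controls and 43.8, 48.4 and 50.8 CPM in treated cells, and rose by 1.09 (adjusted p = 0.000135). PLXND1, the receptor of semaphorin 3E, was at 170.7, 156.7 and 278.0 CPM against 354.9, 300.8 and 297.0 CPM and rose by 0.95 (adjusted p = 4e-04). PLXNB1, the semaphorin 4D receptor, had a value of 0.13 (adjusted p = 0.0535). With all libraries the log2 fold changes of PLXNA3, PLXND1 and PLXNB1 were 0.72, 0.65 and 0.11. In all 3 genes every treated library was above every control library. Groups thus did not overlap for 3 of these 5 other plexins (60%), against 23.4% of all genes tested, in either direction. For the member plexins PLXNA1 and PLXNB2, which this share leaves out, the groups overlapped.

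**Figure D5:**
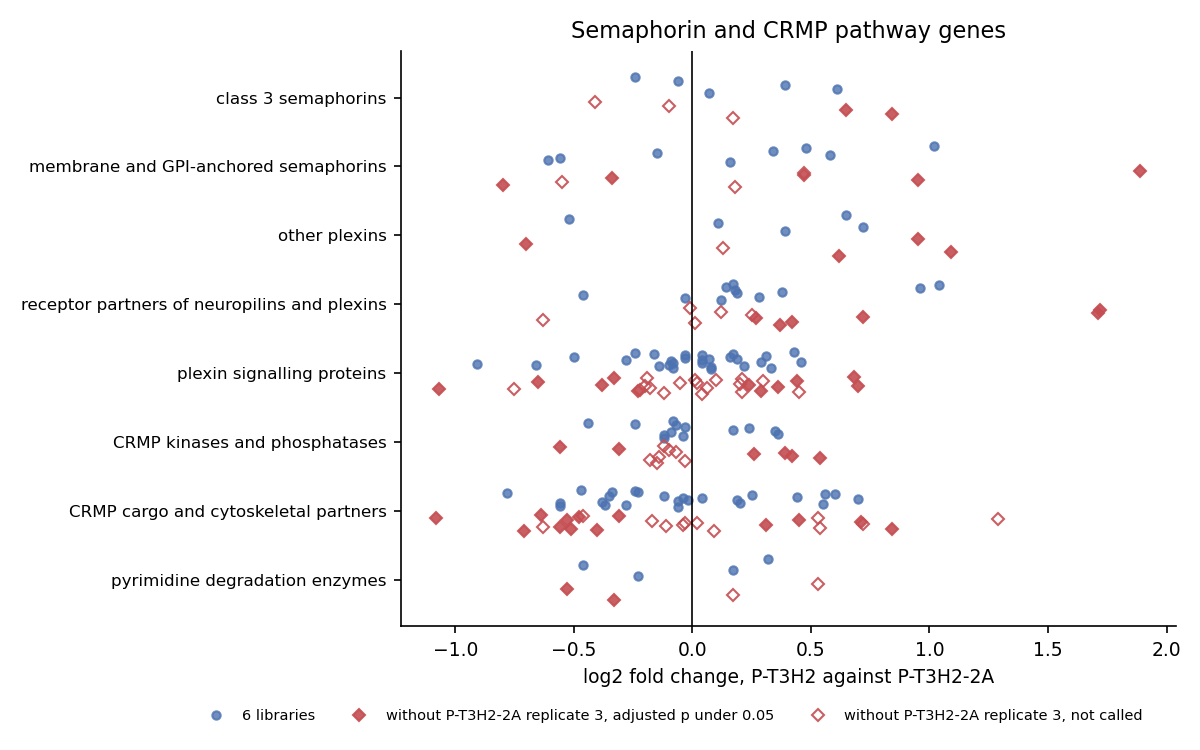
Log2 fold change of P-T3H2 against P-T3H2-2A (x axis) for the 99 pathway genes tested with all 6 libraries, in 8 lists (y axis). Blue circles are the fit with all 6 libraries, in which 0 genes passed; red diamonds are the fit without P-T3H2-2A replicate 3, filled where the adjusted p was under 0.05.

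Among co-receptors and growth factor ligands, PGF, placental growth factor, an NRP1 ligand, had 40.8 and 42.4 CPM in control replicates 1 and 2 but 128.1 CPM in the remaining control, just under the 128.6 to 142.8 CPM of treated cells. It rose by 1.71 (adjusted p = 1.35e-05), against 0.96 with all libraries. VEGFA, also an NRP1 ligand, rose by 0.72 (adjusted p = 0.000205), and its value relative to control replicate 3 alone was -0.13. MET, a kinase that associates with B-type plexins, rose by 0.42 (adjusted p = 0.000486), while the integrin gene ITGB1 had a value of 0.12 (adjusted p = 0.522). With all libraries the values of VEGFA, MET and ITGB1 were 0.38, 0.28 and 0.14. In control replicate 3 MET was at 188.6 CPM, within the 188.0 to 196.6 CPM of treated cells. Of 11 tested 6 rose and 0 fell, or 54.5% against 45.4% of all genes. The VEGF receptor genes KDR, FLT1 and FLT4, named after their values were seen, had 0 counts in all libraries, which allows up to 0.174 CPM in the shallowest one.

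Among the abundant plexin effectors, RAC1, a GTPase that acts on actin, and CFL1, the actin-severing cofilin, were at 42.9 and 32.8 FPKM in controls and had log2 fold changes of 0.08 and -0.16 with all libraries. Without control replicate 3 they were 0.04 and -0.19 and did not pass (adjusted p = 0.736 and 0.232). ARHGEF12, an exchange factor that binds B-type plexins, rose by 0.70 (adjusted p = 0.000366) and the exchange factor gene TRIO by 0.68 (adjusted p = 0.000118), against 0.46 and 0.43. Of 28 tested 6 rose and 5 fell, or 39.3% against 45.4% of all genes.

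Of the enzymes that act on CRMPs, 4 of 13 rose and 2 fell, or 46.2% against 45.4% of all genes. GSK3B, a kinase of DPYSL2, was at 105.1, 97.6 and 143.5 CPM in controls and at 149.8, 145.5 and 148.6 CPM in treated cells. It rose by 0.54 (adjusted p = 0.000319). The phosphatase subunit PPP1CC fell by 0.56 (adjusted p = 0.000717), while PPP2CA had a value of -0.10 (adjusted p = 0.115). With all libraries the values of GSK3B, PPP1CC and PPP2CA were 0.36, -0.44 and -0.07.

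CRMP cargo and partners moved in both directions, 4 rising and 9 falling of 25, or 52% against 45.4% of all genes. TUBB, TUBA1B and TUBB4B, abundant tubulin genes, fell by 0.51, 0.71 and 0.56 (adjusted p = 0.000392, 0.000137 and 0.000617), against -0.37, -0.56 and -0.38 with all libraries; relative to control replicate 3 alone the value of TUBB4B was 0.05. TUBB2A, another beta-tubulin gene, was at 146.4, 144.5 and 245.1 CPM in controls and at 261.4, 265.7 and 256.6 CPM in treated cells, and rose by 0.84 (adjusted p = 3.77e-05), against 0.55. Tubulin genes have near-identical copies between which reads can be split, so values of single tubulin genes are uncertain. MARCKS, a substrate protein of protein kinase C at the membrane, fell by 0.64 (adjusted p = 7.61e-05), against -0.47.

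The dihydropyrimidinase gene DPYS itself, after which the DPYSL genes are named, had 0 to 2 counts per library. DPYD, the rate-limiting enzyme of pyrimidine breakdown, was at 68.4, 68.6 and 55.2 CPM in controls and 52.1, 58.4 and 53.3 CPM in treated cells, and fell by 0.33 (adjusted p = 0.00724), against -0.23. The uridine phosphorylase gene UPP1 fell by 0.53 (adjusted p = 0.0201), against -0.46, and UPB1, the last enzyme of the pathway, had values of 0.17 in both fits (adjusted p = 0.328). Of 4 tested 0 rose and 2 fell, or 50% against 45.4% of all genes.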

How the data were processed

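Whole-number gene counts and FPKM for 50868 genes were deposited by the authors, per the file headers. The submitters' processing notes name HISAT2 (2.0.4), edgeR and StringTie (1.3.3b) without a role, and a mouse build; the table lists human Ensembl genes, and 47523 of its 50152 IDs found in GENCODE release 29 (GRCh38) have the same coordinates, as do 8 of the 9 members (not DPYSL2, whose coordinates are the table's). The strand setting is not given in the sources used here. Opposite-strand exons overlap DPYSL2 by 71 bases (PNMA2, 3 to 35 counts) and CRMP1 by 159 bases (EVC, 78 to 138 counts). The deposited FPKM equal counts divided by library total and 1 length per gene.

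Counts were tested across all genes with edgeR 4.0.16 (R 4.3.3): TMM, filterByExpr (minimum 10 counts, total 15), robust quasi-likelihood fit, group as the only term, Benjamini-Hochberg adjustment at 0.05. The SE is the log2 fold change divided by the root of F. CPM use the total of fitted genes and the TMM factor. The procedure was tested on simulated data. Replicates differed by more than counting noise (chi-square over genes at least 11.6 per gene). Depth, 17434442 to 21374732 counts, sets the counting error, and no molecular identifiers are stated.

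Members and gene lists were chosen with earlier results of these data known. Pathway genes were named by rule: the 3 highest in FPKM of each list, and the 2 of smallest p without P-T3H2-2A replicate 3, except for results that are not reported here; the genes most like DPYSL2 were ranked with 2 as the prior count of log2 CPM. Alternatives were DESeq2 1.42.0, other scalings and filters, the replicate block, limma-trend (limma 3.58.1) on log2(FPKM + 1) and log2(FPKM + 0.1), and left-out libraries. GENCODE lengths were added after the data were seen.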

Additional observations from a re-analysis of the deposited data

How the results depend on the processing

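The log2 fold change of DPYSL2 lay between 0.77 and 1.15 over 15 alternatives, and between 0.94 and 1.02 over those that kept all libraries. NRP2 ranged from 0.02 to 1.29 over 12, its lowest value being against control replicate 3 (P-T3H2-2A) alone and its highest without that library. PLXNA1 ranged from -0.01 to 0.18, PLXNB2 from 0.05 to 0.18, NRP1 from -0.11 to -0.02, DPYSL5 from -0.09 to 0.28 and DPYSL3 from -0.52 to -0.29. Over all genes, 1 was called higher and 0 lower with P-T3H2. DESeq2 called 34 higher and 83 lower, the fit with no filter beyond 1 count called 2 and 2, limma-trend on log2(FPKM + 1) called 2 higher, and control replicate 3 as the only control gave 34 and 28. Leaving out 1 library gave 0 to 3686 genes higher, 0 to 3704 lower and 0 to 50 pathway genes; each highest value was without control replicate 3, and the others were at most 2, 2 and 0 (2 and 2 without treated replicate 2; 0 higher without control replicate 2, treated replicate 1 or treated replicate 3). At an unadjusted p under 0.05 edgeR had 2874 genes with all libraries. With control replicate 3 as the only control, SEMA3A (-0.11), SEMA3D (-0.01), SEMA3F (0.03), VEGFA (-0.13) and TUBB4B (0.05) changed sign among the pathway genes named. The replicate block gave 0 genes higher and 0 lower. Same-numbered libraries correlated in their deviations from the group mean by -0.051, 0.163 and 0.112, and of the controls 2 of 3 correlated best with their own number. These few values cannot decide whether the numbers pair the samples, as the control means include the outlying control replicate 3. The cause of these changes was not tested. Depth limits DPYSL3, DPYSL4, CRMP1 and NRP2, at 0 to 129 counts per library.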
